A study of Mus musculus with 6 samples.

Results

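The transcription factor p53 and its best known direct target genes were examined in the whole brain of newborn mice after ethanol. The set was listed by gene symbol and held 9 genes, which are Trp53 itself, the p53 inhibitors Mdm2 and Mdm4, and the targets Cdkn1a, Ccng1, Trp53inp1, Phlda3, Plk2 and Gadd45a. Of these, 7 had a probeset annotated to exactly 1 gene, and all 7 were bright enough to be tested, out of 14953 tested genes. Cdkn1a lay on a probeset annotated to several genes and was not read, and Trp53 was not analysed here. Each of the 7 had 1 probeset.

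Ethanol pools came from 7-day-old male C57BL/6J pups, an inbred mouse strain, injected under the skin with 20% ethanol in 0.15 M saline in 2 doses of 2.5 g/kg given 2 h apart. Saline pools came from male pups of the same age and strain injected with 0.15 M saline alone. Brains of both groups were taken 4 h after the first dose, and each array was hybridised with RNA of 3 males from different litters, so that 2 ethanol arrays (numbered 2 and 4) and 4 saline arrays (1, 3, 5 and 6) represent 18 mice. Values are log2 intensities, and differences are ethanol minus saline with the standard error (SE) of a limma fit over all 6 arrays. A pool averages its 3 animals, so the spread between arrays is that between pools.

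In resting cells Mdm2, a ubiquitin ligase, and its partner Mdm4 keep p53 scarce and inactive. DNA damage and other stresses release p53, which then binds its response elements and turns on genes that halt the cell cycle, repair DNA or kill the cell, and also Mdm2, which closes a negative feedback loop. Because p53 is controlled mostly at the level of its protein, the mRNA of its targets is the usual readout of its activity on an expression array. In the immature rodent brain ethanol is known to set off apoptosis of neurons within hours.

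A p53 response element is built of half-sites. Each half-site is made of 3 purines, a C, 2 bases that are A or T, a G and 3 pyrimidines. The stretches below show matches to a single half-site, or to 2 side by side, at start sites of the set. RefSeq start-site windows of 300 bases (250 before and 50 from the annotated start, build GRCm38.p6) were found for 8 of the 9 listed genes, in 10 windows, and none was found for Trp53inp1. The half-site was searched without mismatch (its pattern reads the same on both strands), and 2 half-sites side by side were searched with at most 1 mismatch. The matched bases are in capitals.
Ccng1, chr11:40755447-40755496, minus strand: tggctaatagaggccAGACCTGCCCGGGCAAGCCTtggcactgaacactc
Cdkn1a, chr17:29090913-29090962, plus strand: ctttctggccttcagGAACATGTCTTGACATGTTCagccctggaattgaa
Mdm2, chr10:117710920-117710959, minus strand: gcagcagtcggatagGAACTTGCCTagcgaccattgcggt
Gadd45a, chr6:67037423-67037462, minus strand: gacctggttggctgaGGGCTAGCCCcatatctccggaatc

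Ccng1 and Cdkn1a were the members with 2 half-sites side by side, which began 195 and 51 bases upstream of an annotated start, each with 1 mismatch. Such a pair was present in 0.0883% of 32851 start-site windows. The Cdkn1a pair lay in the window chr17:29090729-29091028. That window also held a second half-site that makes a pair without mismatch across a spacer of 12 bases. Such spaced pairs, with up to 13 bases between, were in 0.0731% of windows. The other Cdkn1a window, at the start site further downstream (chr17:29093519-29093818), held 0 half-sites. Mdm2, Gadd45a and Trp53 held a single half-site, 186, 40 and 75 bases upstream. At least 1 half-site was present in 8.36% of all windows. No half-site was found in the windows of Mdm4, Phlda3 and Plk2, which says only that these letters are not in them. A match is a description of sequence and not evidence that p53 was bound there.

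One gene of the 7 stood apart in its estimate. Trp53inp1, a stress-induced nuclear protein that acts with p53 and in autophagy, was estimated 1.26-fold higher with ethanol, and the estimates of the other 6, among them the feedback gene Mdm2 and the classical targets Ccng1 and Phlda3, lay within 7% of the saline level. None of the 7 passed the limma test at an adjusted p of 0.05, a test that called 0.0803% of all tested genes (0.0602% higher and 0.0201% lower). The limma test gave an unadjusted p under 0.05 for 1 of 7, Trp53inp1, against 12.3% of all tested genes (3.85% higher and 8.44% lower), so the count for the set is near the background. The median difference of the 7 was -0.03, beside -0.02 over all tested genes, and 2 members lay above 0 and 5 below, where 41.4% and 58.6% of tested genes did.

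Mdm2, the ligase that marks p53 for destruction and is itself switched on by p53, read 8.96 and 8.97 on ethanol arrays 2 and 4, against 9.05, 8.91, 8.99 and 9.13 on saline arrays 1, 3, 5 and 6. Both ethanol values lay inside the saline range. The log2 difference was -0.06 ± 0.07 (SE; limma adjusted p = 0.778), with a 95% interval of 0.866-fold to 1.06-fold. Mdm4, which binds and silences the activation domain of p53 and forms a complex with Mdm2, read 9.43 and 9.54 on the ethanol arrays, against 9.45, 9.52, 9.58 and 9.50 on the saline arrays. The groups overlapped, with a difference of -0.03 ± 0.06 (limma adjusted p = 0.883; 95% interval 0.888-fold to 1.08-fold).

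Trp53inp1 read 9.72 and 9.48 on ethanol arrays 2 and 4, against 9.27, 9.15, 9.30 and 9.33 on saline arrays 1, 3, 5 and 6. Both ethanol arrays lay above all saline arrays, and it was the single member of 7 with that order, which 7.68% of tested genes showed, while 14.9% had both ethanol arrays below all saline arrays and no member did. The difference was 0.34 ± 0.08 (SE; limma adjusted p = 0.115), a 1.26-fold higher level with a 95% interval of 1.12-fold to 1.42-fold, and the gene ranked 120 of 14953 by p. The ethanol arrays were unequal: without array 2 the difference was 0.22, and without array 4 it was 0.46. Of the saline arrays, number 3 was the lowest for this gene, and without it the difference was 0.30. The exact two-sided permutation test over the 15 ways of choosing 2 of 6 arrays gave p = 0.0667, the smallest it can give with these group sizes.

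**Figure D1:**
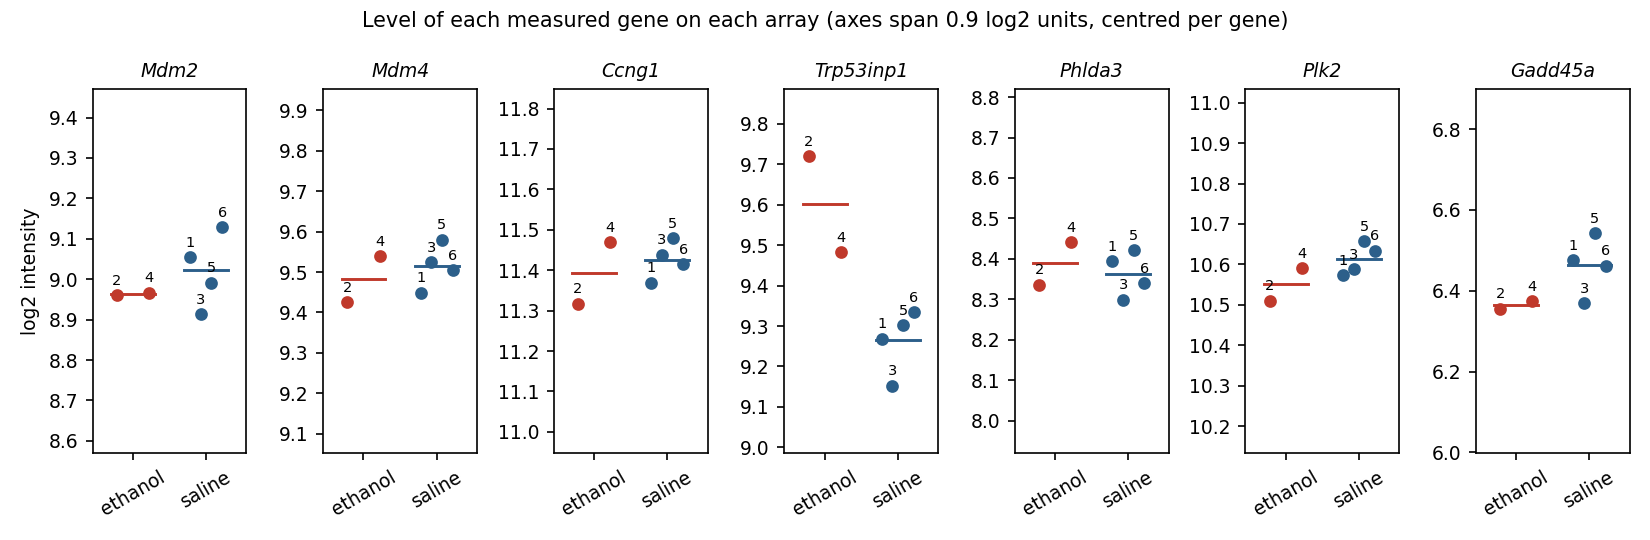
Log2 intensity (vertical axis) of each of the 7 measured genes on ethanol arrays (left, red) and saline arrays (right, blue), with the array number beside each point and the group mean as a line. The 2 ethanol points of Trp53inp1, at 9.72 and 9.48, lie above its 4 saline points, and in the other genes the groups overlap.

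Ccng1, which encodes cyclin G1, a partner of a phosphatase that acts on Mdm2, carried the pair of half-sites printed above and was the brightest of the measured set. It read 11.32 and 11.47 on the ethanol arrays, against 11.37, 11.44, 11.48 and 11.41 on the saline arrays. The ethanol arrays held both the lowest value of the gene (array 2) and its next to highest (array 4). Its difference was -0.03 ± 0.07 (limma adjusted p = 0.885), with a 95% interval of 0.886-fold to 1.08-fold. Phlda3, a small lipid-binding protein that keeps the kinase Akt from the membrane, read 8.34 and 8.44 on the ethanol arrays, against 8.39, 8.30, 8.42 and 8.34 on the saline arrays. The groups overlapped, with a difference of 0.03 ± 0.06 (limma adjusted p = 0.915; 95% interval 0.925-fold to 1.12-fold).

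Plk2, a polo-like kinase that in neurons also takes part in the weakening of overactive synapses, read 10.51 and 10.59 on ethanol arrays, against 10.57, 10.59, 10.66 and 10.63 on saline arrays. Its difference was -0.06 ± 0.06 (limma adjusted p = 0.717; 95% interval 0.875-fold to 1.05-fold). Gadd45a, a growth arrest gene whose product binds stress kinases and the replication clamp PCNA, was the dimmest member, not far above the background level of 6.21 taken from olfactory and vomeronasal receptor genes. It read 6.36 and 6.37 on the ethanol arrays, against 6.48, 6.37, 6.54 and 6.46 on the saline arrays, where saline array 3 alone fell among the ethanol values. The difference was -0.10 ± 0.06 (limma adjusted p = 0.566; 95% interval 0.848-fold to 1.03-fold), and it was -0.13 without saline array 3 (unadjusted p = 0.0366 and adjusted p = 0.323 in limma).

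**Figure D2:**
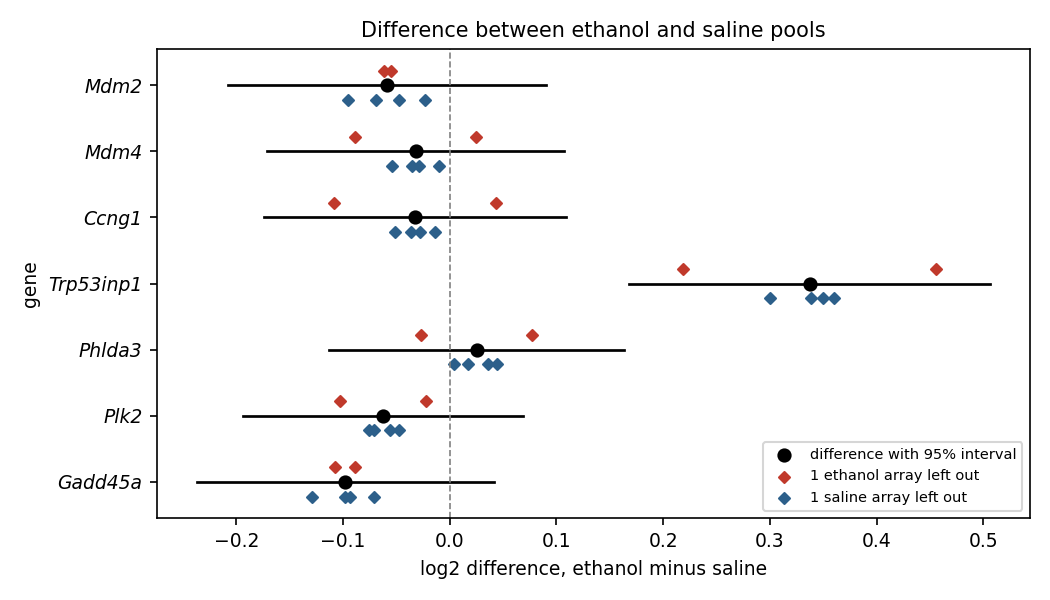
Log2 difference, ethanol minus saline (horizontal axis), of the 7 measured genes with the 95% interval of the limma fit (black), and the differences with 1 ethanol array (red) or 1 saline array (blue) left out. The interval of Trp53inp1 lies above 0, from 0.17 to 0.51, and the other 6 intervals include 0.

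Pools differed from each other across the set within both groups. On ethanol array 2, 1 of the 7 genes lay above its saline mean, and the median deviation was -0.09. On ethanol array 4, 4 of 7 did, with a median deviation of 0.02. The saline arrays spread in a like way, from 2 of 7 on array 3 (median deviation -0.06) to 6 of 7 on array 5 (0.05). Leaving out ethanol array 2 turned Mdm4 and Ccng1 to differences of 0.02 and 0.04, and leaving out ethanol array 4 turned Phlda3 to -0.03, none of them past the test. Saline array 3 stood apart from the other arrays on the first principal component of all tested genes (40.9% of the variance), at 13.5. The other saline arrays lay between -2.13 and 2.95. Ethanol arrays 2 and 4 lay at the opposite end, at -6.61 and -7.49. Defining markers of brain were bright on all arrays, with Snap25, Map2 and Tubb3 of neurons at 12.7, 12.7 and 10.7 on average in ethanol pools and 12.9, 12.8 and 10.7 in saline pools. Both ethanol arrays lay below all saline arrays for Snap25 (-0.19 ± 0.06, limma adjusted p = 0.257) and Map2 (-0.05 ± 0.06, limma adjusted p = 0.783), and the groups overlapped for Tubb3. Of 8 neuronal markers, these 2 alone had that order, which 14.9% of all tested genes showed. The summed linear intensity of 8 neuronal markers was 41557 to 42819 on ethanol arrays and 41231 to 43929 on saline arrays, with 4 of the 8 differences above 0. In whole brain RNA, fewer cells of a type and less RNA per cell cannot be told apart.

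Marker sums of other tissues did differ in order between the groups. The 7 pituitary markers with a probeset, 4 of them near background or dim, summed to 377 to 621 on ethanol arrays and 707 to 907 on saline arrays. The 6 choroid plexus markers summed to 9243 to 9431 on ethanol arrays and 9477 to 10101 on saline arrays, but 3 of the 6 differences lay above 0 and their median was -0.002. The choroid plexus sum is mostly Ttr, whose groups overlapped (-0.07 ± 0.06), and Sostdc1 was the one member with an unadjusted p under 0.05 in limma (-0.32 ± 0.07), with both ethanol arrays below all saline arrays. The 8 muscle and skin markers, 5 of them near background or dim, summed to 450 to 452 on ethanol arrays and 478 to 510 on saline arrays. Sums of markers of astrocytes, the oligodendrocyte lineage, microglia, endothelium and blood overlapped between the groups. In the oligodendrocyte lineage list, 2 of 6 tested genes were lower at an unadjusted p under 0.05 in limma, where 8.44% of all tested genes were. Of the 6 differences, 2 lay above 0. The median of this list was -0.10, and it was -0.009 without ethanol array 2. Its transcription factor gene Olig2 read 9.41 and 9.29 on ethanol arrays, against 9.76, 9.67, 9.63 and 9.62 on saline arrays (-0.32 ± 0.07, limma adjusted p = 0.0827). Array values do not reach 0, so no marker is at 0, and the part of these tissues and cell types in the difference of Trp53inp1 was not tested.

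The lists of p53 pathway genes cover p53 targets, upstream regulators, paralogs of the set and cell cycle genes turned down through p53. Pooled, their 87 further tested genes had 43 differences above 0 and 44 below, with a median of -0.001. This pool mixes roles, so its split does not describe the targets alone. Of the 87, 1 passed the limma test. That gene was Btg2, an antiproliferative target of p53, which read 8.44 and 8.38 on ethanol arrays, against 7.81, 7.79, 7.89 and 7.86 on saline arrays. It rose by 0.57 ± 0.06 (limma adjusted p = 0.00211), a call that was lost with no variance prior. The other 10 tested targets in cell cycle control and feedback did not pass, and of these Plk3, a stress-responsive polo-like kinase, had a difference of -0.20 ± 0.06 and Gtse1, which shuttles p53 out of the nucleus, -0.20 ± 0.08. At an unadjusted p under 0.05 in limma, the 87 genes held 8 higher and 8 lower, where the shares over all tested genes were 3.85% and 8.44%.

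No difference was detected among targets that act in cell death. Of 11 tested, 0 passed the limma test and 0 had an unadjusted p under 0.05, with a median of 0.03 and differences between -0.17 and 0.16. However, 5 of the 11 were near background, so the lack of a difference says little about those 5. The nuclease gene Aen (-0.17 ± 0.09), the membrane protein gene Perp (0.16 ± 0.09) and Ei24 (-0.09 ± 0.06) had the smallest p. Bbc3, which encodes the BH3 protein PUMA and was near background, had 0.04 ± 0.06 and is named after its value was seen. The death genes Pmaip1, Fas and Tnfrsf10b were too dim to be tested, and Bax was not analysed here.

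Metabolic and secreted targets had 9 of 12 tested members above 0, a median of 0.05 and 0 past the limma test. Of all tested genes, 41.4% lay above 0. An unadjusted p under 0.05 in limma was found for 4 of the 12, all higher, where 3.85% of tested genes were called higher in that way. They were Sesn1, Igfbp3 and Ddit4, with differences of 0.37 ± 0.07, 0.35 ± 0.08 and 0.28 ± 0.07, and Lpin1, a phosphatidate phosphatase, with 0.26 ± 0.07, which is named after its value was seen. For Lpin1 the ethanol arrays read 8.24 and 8.22, against 7.93, 7.86, 8.07 and 8.02 on the saline arrays. Of the 12, these 4 genes alone had both ethanol arrays above all saline arrays, an order shown by 7.68% of tested genes and by Trp53inp1. The 4 were picked by their p from the same values, so this order adds no support. The lists were chosen with earlier results of these data known, so their counts beside these shares are a description and not a test. In the DNA repair list, 0 of 7 tested genes passed. In limma 1 was lower at an unadjusted p under 0.05, where 8.44% of all tested genes were. Pcna, the replication clamp, had -0.20 ± 0.08, Polk, a translesion polymerase, 0.06 ± 0.06 and Ddb2, a damage sensor, 0.05 ± 0.08.

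Regulators upstream of p53 were split evenly, with 11 of 22 tested above 0, a median of 0.001 and 0 past the limma test. An unadjusted p under 0.05 in limma was found for 4, 1 of them higher and 3 lower. The shares over all tested genes were 3.85% and 8.44%. The checkpoint kinase gene Chek2, whose product phosphorylates p53 after DNA breaks, had 0.18 ± 0.06, and Chek1, the kinase of stalled replication, -0.16 ± 0.07. Chek2 read 6.56 and 6.68 on ethanol arrays, against 6.43, 6.36, 6.50 and 6.45 on saline arrays, and Chek1 read 7.17 and 7.15 on ethanol arrays, against 7.23, 7.40, 7.35 and 7.29. The groups of both genes did not overlap, in opposite directions, and neither difference passed the limma test (adjusted p of 0.285 and 0.344). Both were named for their small p in the same values, so the lack of overlap adds no support. Of all tested genes, 7.68% had both ethanol arrays above all saline arrays and 14.9% had both below. Npm1, a nucleolar protein that restrains Mdm2, had -0.18 ± 0.07, and Usp7, which removes ubiquitin from Mdm2 and p53 and is named after its value was seen, -0.13 ± 0.06.

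The paralogs of the set held no gene that passed. Trp63 and Trp73, relatives of p53 that bind the same elements, were near background at 5.92 and 5.82 in ethanol pools and 6.02 and 5.81 in saline pools, with differences of -0.10 ± 0.07 and 0.00 ± 0.06. Trp53inp2, the autophagy paralog of Trp53inp1, had -0.04 ± 0.06 (limma adjusted p = 0.851). These 3 are named after their values were seen. Gadd45b, a sister of Gadd45a induced by neuronal activity, had 0.21 ± 0.06, with 7.10 and 6.96 on ethanol arrays against 6.83, 6.76, 6.83 and 6.86 on saline arrays, and Ccng2, a sister of Ccng1 that FoxO factors induce, had 0.19 ± 0.07. Neither passed the limma test (adjusted p of 0.222 and 0.327), and 0 of 13 tested paralogs passed in limma. An unadjusted p under 0.05 in limma was found for 2 that were higher and 2 that were lower. Over all tested genes these shares were 3.85% and 8.44%. Whether Trp53inp1 and Trp53inp2, or Gadd45a and Gadd45b, differed in response was not tested.

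Cell cycle genes that p53 turns down through p21 and the DREAM complex had a median of -0.05 over 14 tested members. Of these, 8 lay below 0, near the 58.6% of all tested genes that did. The median was -0.08 without ethanol array 2, 0.03 without ethanol array 4 and -0.008 without saline array 6, so its sign rested on single arrays. Cdk1, the kinase of mitotic entry, had -0.21 ± 0.08, Mki67, the proliferation marker, -0.10 ± 0.07, and Birc5, an apoptosis inhibitor near background, 0.10 ± 0.06. None of the 14 passed the limma test, and 1 was lower at an unadjusted p under 0.05, where 8.44% of all tested genes were.

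**Figure D3:**
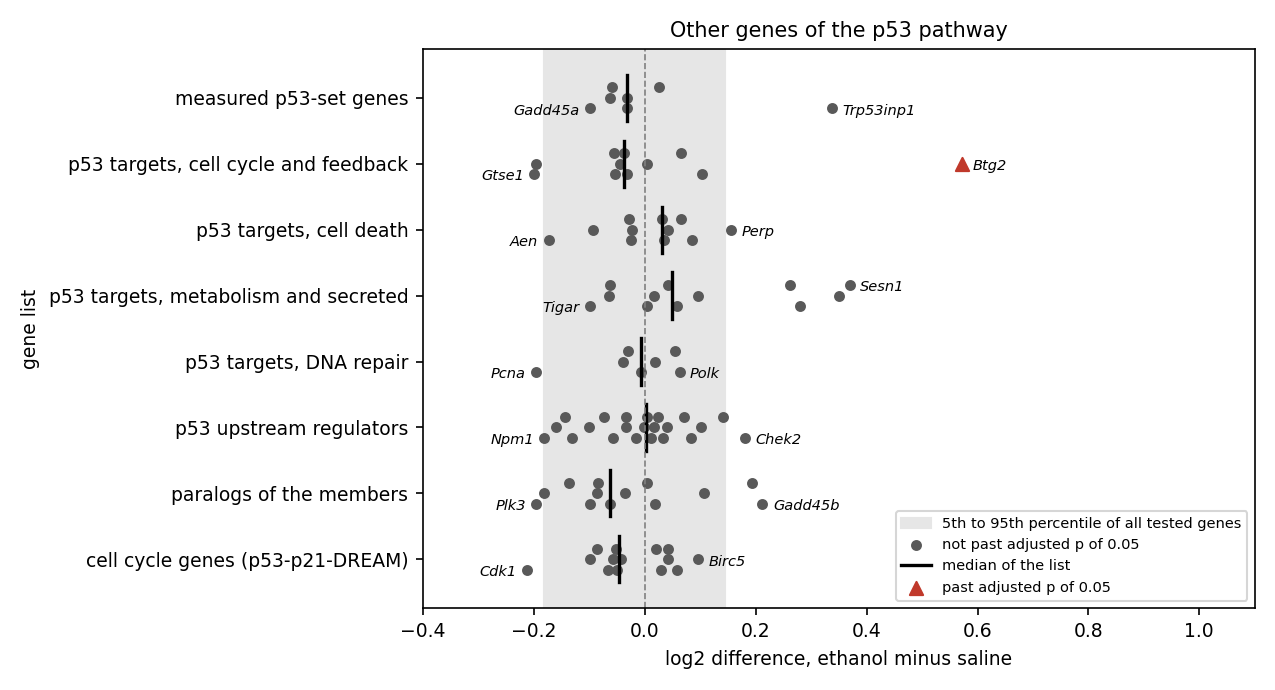
Log2 difference, ethanol minus saline (horizontal axis), of the 7 measured genes and of the tested genes of each p53 pathway list, with the list median as a black bar and the 5th to 95th percentile of all tested genes in grey. Btg2, at 0.57, is the one gene marked as past an adjusted p of 0.05, and Trp53inp1 and 4 metabolic or secreted targets lie next to it on the higher side.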

How the data were processed

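RNA of 6 pools was hybridised to Affymetrix whole-transcript arrays, per the labels' protocols. The table deposited by the authors holds a log2 intensity for each probeset on each array, a scale inferred from its range of 4.10 to 14.9. The submitters' processing notes name Partek 6.6. Background correction, normalization and genome build were not stated, so the values were kept as deposited, and another normalization could move small differences. Of 35556 probesets, 21789 had 1 gene symbol in the platform annotation, 1621 had several and were not used, and 12146 were unnamed here. Gene records matched 21698 of the single-symbol probesets and gave current symbols. The probeset with the highest mean stood for each of 19938 genes, and the dimmest 25% (4985 genes, up to 5.56) were left out. The background level is the 95th percentile, 6.21, of 1194 olfactory and vomeronasal receptor genes.

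The remaining 14953 genes were fitted with limma 3.58.1 (lmFit and eBayes, R 4.3.3) on treatment alone, two-sided, and p-values were adjusted by Benjamini-Hochberg over all of them. There were 4 residual and 8.10 prior degrees of freedom. The code was tested on simulated data. The number of arrays limits the precision. The members and lists were chosen with earlier results of these data known. All members were named, and from each p53 list any gene that passed and the 3 with the smallest p. The same rule also asked for the genes nearest in profile to Trp53 and Cdkn1a, which could not be given. Lists are described by counts and medians. Of 104 other listed p53 pathway genes, 87 were tested, and the rest were dim, on probesets of several genes or not analysed here. Promoter windows are from RefSeq (GRCm38.p6). Alternatives covered the dim filter, probeset choice, scaling, variance prior, array weights and each array left out.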

Additional observations from a re-analysis of the deposited data

Results flagged for a closer look

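Among 27 members and named list genes, 2 had 1 saline array far from the other 3, where chance gives about 1 in 20 genes. For Ei24 the gap of saline array 3 was 0.934 of the saline range, with a level of 11.50 against 11.60 on each of the other saline arrays. For Birc5 the gap of saline array 6 was 0.90 of the range, with 6.04 against 5.93 to 5.94 on the others.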

How the results depend on the processing

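No paired analysis was possible because the ethanol and saline arrays share no replicate number. Under all 16 alternatives 0 of the 7 members passed, and Trp53inp1 alone had an unadjusted p under 0.05 in limma, except without saline array 3, where Gadd45a made them 2. Trp53inp1 stayed higher in all 16, with differences of 0.22 to 0.46 and adjusted p of 0.0715 to 0.425. No member passed, so none lost a call. Gadd45a fell out of the test under the 50% filter on dim genes, and no member had a second probeset to try. Over the arrays left out in turn, the difference ranged from -0.0885 to 0.0244 for Mdm4, from -0.109 to 0.0437 for Ccng1 and from -0.0271 to 0.0774 for Phlda3, and the sign changes came from the ethanol arrays. With 1 ethanol array left, that array is assumed to vary like the saline arrays.

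The count of all genes that passed moved more. As deposited it was 9 higher and 3 lower. It was 22 and 30 with the dimmest 50% left out, 17 and 6 after quantile normalization, 23 and 20 with an intensity-dependent prior, 21 and 35 with array weights and 0 and 0 with no variance prior (391 and 1144 at an unadjusted p under 0.05). After median centring it was 23 higher and 3 lower, so the higher share was 88.5% against 75.0% as deposited, and 57.6% against 31.3% at an unadjusted p under 0.05 (47.3% after quantile normalization). With 1 array left out it ranged from 3 to 12 higher and from 1 to 5 lower. Of the other p53 pathway genes 1 passed as deposited (Btg2) and 2 (Btg2 and Sesn1) with the dimmest 50% left out, after either scaling, with an intensity-dependent prior and with array weights, while 0 of 87 passed with no variance prior, a plain linear model (14 at an unadjusted p under 0.05). The cause of these moves was not tested. The members and the other genes named with a value kept their sign under both other scalings, except the neuronal marker Tubb3 (-0.002 as deposited, 0.02 after centring). The median SE of a tested gene was 0.07. With 6 pools, changes smaller than the intervals given could not be told from 0, and larger ones could still fail the adjusted test, as Trp53inp1 did.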

Other observations

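The pair of side-by-side p53 half-sites printed for Ccng1 and Cdkn1a was found at the start sites of 29 genes in the RefSeq table, of which 7 were tested on the arrays. All 7 differences lay below 0, between -0.22 and -0.03, with a median of -0.06, where 58.6% of tested genes lay below 0. None of the 7 passed the limma test and 2, both lower, had an unadjusted p under 0.05, where 8.44% of tested genes were lower in that way. Besides Ccng1 (-0.03 ± 0.07), they included the p53 targets Rps27l (-0.05 ± 0.08) and Gtse1 (-0.20 ± 0.08), and the lectin receptor gene Clec4b1 (-0.22 ± 0.07). The list was drawn from sequence after the differences had been seen, and it is given as a description.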
